A study of Mus musculus with 4 samples.

Results

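DNA replication and S phase genes, without the MCM2-7 helicase subunits, were taken from a list of 51 names, and 45 of them had a row among the 4878 genes of the ribosome footprint table. Ung, Gins3, Hells, Cdt1, Exo1 and Blm were not analysed here. The footprints came from mouse embryonic fibroblasts, primary connective tissue cells, at passages 5 to 8. Cells received either the siRNA labelled Si-Negative control (control libraries, n = 2) or the one labelled Si-eIF1A (X+18) (knockdown libraries, n = 2), with Lipofectamine RNAimax in both groups. No label gives a genotype, a strain or the origin of the replicates, so p-values measure no more than how far these 4 libraries spread, and that spread may be technical. Reads were given for the 5' UTR (the leader, which lies ahead of the start codon) and for coding sequence, as read numbers divided by a size factor per library.

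Replication starts when the origin recognition complex, CDC6 and CDT1 load the MCM helicase onto DNA in G1, and when CDC45 and GINS turn it on in S phase. RFC then loads the PCNA clamp, polymerases alpha, delta and epsilon copy the strands, FEN1 and LIG1 join Okazaki fragments, and CAF-1 places histones on the new DNA. E2F transcription factors switch most of these genes on as cells enter S phase. eIF1A binds the small ribosomal subunit and helps it to scan the leader for a start codon, and the series title names cell cycle genes.

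Summed over the table, the controls had 617663 and 547916 reads, and the knockdown libraries 458191 and 280649 (replicates 1 and 2 throughout). The share of reads on leaders was higher the shallower the library, from 11.6% and 13.7% in the controls to 19.95% and 32.4% in the knockdown libraries, and the part of depth in this was not tested. Of 14 fibroblast markers 5 were in the table (Col5a1, Vim, S100a4, Fn1 and Fbln2), with 1.35% and 1.83% of coding reads in the controls and 1.04% and 1.11% in the knockdown libraries. No endothelial, leukocyte or muscle marker was among the genes analysed here, while 1 of 6 epithelial, 2 of 4 neural and 2 of 3 pericyte markers were. The pericyte genes Cspg4 and Notch3 together held 0.0862% and 0.134% of coding reads in the controls and 0.0284% and 0.0406% in the knockdown libraries, and the part of other cells in the values below was not tested. Eif1ax and Eif1a were not analysed here, so the knockdown itself was not checked.

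E2F-type words lay ahead of transcript starts of some of these genes, and after the start in Lig1, Clspn, Pold1 and Pold3. Those of Pola1, Uhrf1 and Dtl, which had called changes, and of the licensing genes Orc1 and Cdc6 are shown. The words searched were TTTCCCGC, TTTGCCGC, TTTCGCGC and TTTGGCGC on both strands of RefSeq promoter windows (GRCm38.p6), which run from 250 bases before a start to 50 after it. Of 35 replication genes with such a window, 12 held a word in any of their windows (34.3%), against 222 of 3831 genes of the footprint table (5.79%) and 2.26% of all 32851 windows. MCM2-7 held one in 4 of 5 genes. Capitals mark the word, each run is 30 bases of the gene's strand before a start in the RefSeq table, and a match is a description of letters, not of binding. Dtl's run lies outside the span of the gene, whereas the starts used for Pola1, Uhrf1, Cdc6 and Orc1 lie inside that span.
Pola1 (chrX:93632275-93632304, minus strand): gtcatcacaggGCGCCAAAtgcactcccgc
Uhrf1 (chr17:56304117-56304146, plus strand): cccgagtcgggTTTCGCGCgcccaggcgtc
Dtl (chr1:191575545-191575574, minus strand): caatcagaaagcgtgacgtcagTTTGGCGC
Cdc6 (chr11:98908002-98908031, plus strand): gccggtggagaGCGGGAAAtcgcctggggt
Orc1 (chr4:108579416-108579445, plus strand): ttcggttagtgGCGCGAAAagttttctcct
Of the 6 genes with called coding changes, given below, Pola1, Uhrf1 and Lig1 held a word and Chaf1a, Rfc1 and Rpa3 did not. Of the 6 with called leader changes, Dtl and Clspn held one, Orc6, Rrm2 and Slbp did not, and Gmnn had no window. The leaders of Clspn, Rrm2, Slbp and Gmnn passed the filter, given below, only through the knockdown libraries, so their calls support nothing.

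Coding footprints of most replication genes did not change by the test used. All 45 passed the filter on low values, and 5 fell (Chaf1a, Rfc1, Pola1, Uhrf1 and Lig1), 1 rose (Rpa3) and 39 did not pass (limma, Benjamini-Hochberg over 4619 genes, threshold 0.05). Called genes were thus 13.3% of the replication genes, against 29.3% of all genes tested. Falls were 18.7% and rises 10.6% of all genes. The median log2 change of the 45 genes was 0.03, beside -0.16 for all genes, and TMM scaling moved these medians to 0.20 and 0.01. The replication genes had 5 falls and 1 rise with TMM scaling too, whereas calls over all genes went from 488 higher and 864 lower to 789 and 764. Both knockdown libraries lay below both controls in 11 replication genes and above both in 9, while 25 overlapped. Over all genes the shares were 40.1% below and 26.0% above. In these data fewer cells in S phase, less mRNA per cell and fewer ribosomes per mRNA cannot be told apart.

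The knockdown libraries differed from each other more than the controls did. Knockdown replicate 1 lay above replicate 2 in 36 of 45 replication genes (80.0%, against 70.0% of all genes), and 7 genes were at least 2-fold apart between the knockdown libraries and 0 between the controls. Without knockdown replicate 2, the median log2 change was 0.34 for the 45 replication genes and -0.01 for all genes. Without knockdown replicate 1, it was -0.24 and -0.32. Without control replicate 1 there were 2 falls, and without control replicate 2 limma called 0 replication genes, with 7 at an unadjusted p under 0.05 in each case. The table-wide counts fell likewise, from 1352 to 294 and 11.

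**Figure D1:**
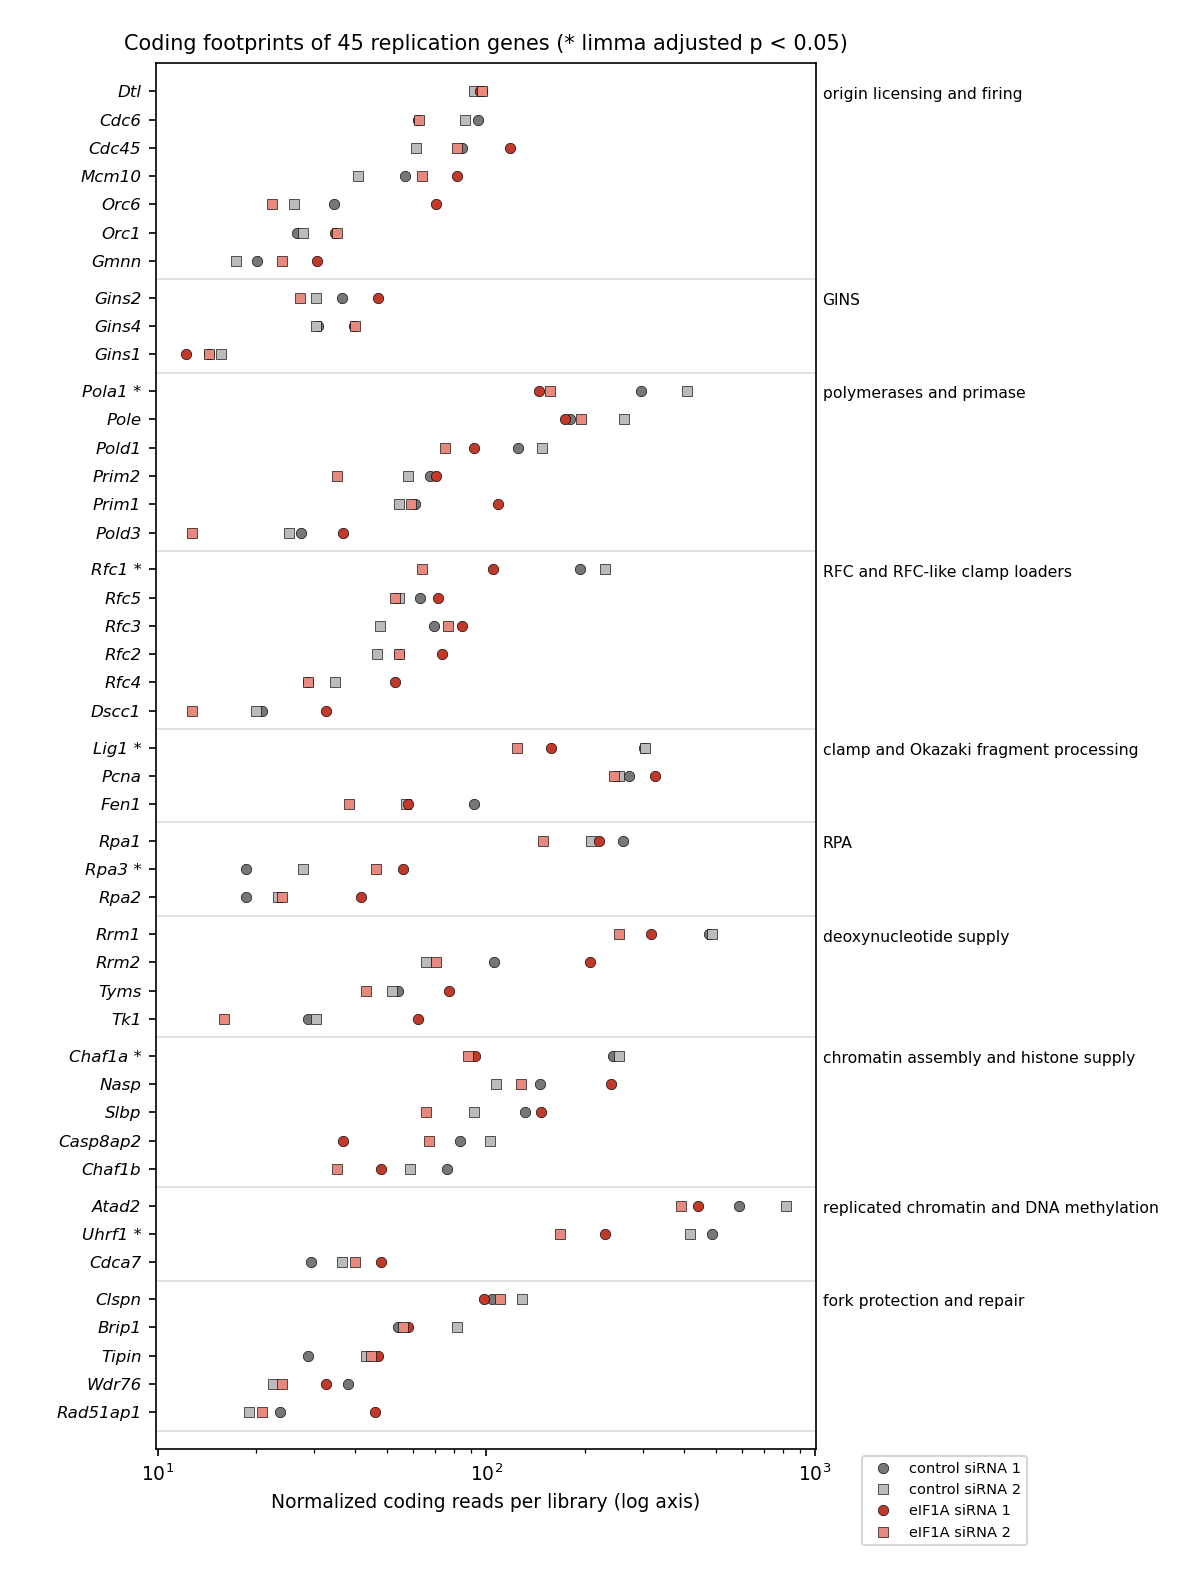
Normalized coding reads of the 45 replication genes in each of the 4 libraries on a log axis, grouped by role, with grey symbols for control siRNA and red for eIF1A siRNA (circles, replicate 1; squares, replicate 2). Chaf1a, Pola1, Rfc1, Uhrf1 and Lig1 have both red symbols left of both grey ones, and Rpa3 has both to the right.

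In chromatin assembly 1 of 5 genes was called lower, Chaf1a, and the median log2 change was -0.69. Falls were 18.7% of all genes tested, which is the share to set beside the count of each role. Chaf1a (chromosome 17, 56040416 to 56068026, mm10), the large subunit of the histone chaperone CAF-1, had 243 and 253 normalized coding reads in the controls and 92.5 and 87.8 in the knockdown libraries. Both knockdown libraries were far below the controls, a fall from 248 ± 7.31 to 90.2 ± 3.37 (mean ± SD, n = 2), which was -1.45 ± 0.28 (SE) on the log2 scale (limma adjusted p = 0.00165). Its partner Chaf1b had 76.0 and 58.8 reads in the controls and 47.8 and 35.1 in the knockdown libraries, without overlap, and did not pass (log2 -0.69, adjusted p = 0.122). Casp8ap2, which is needed for histone gene expression, had 83.1 and 103 against 36.6 and 67.0 (log2 -0.89, adjusted p = 0.0607). The histone chaperone Nasp (log2 0.48) and Slbp, which binds the stem-loop of histone mRNAs (log2 -0.16), overlapped between groups.

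Genes of replicated chromatin lay beside them, with 1 of 3 called lower. Uhrf1, which brings the maintenance methyltransferase to newly copied DNA, had 487 and 417 coding reads in the controls and 230 and 168 in the knockdown libraries. The groups did not overlap, with a log2 value of -1.20 ± 0.29 (SE) for the change (limma adjusted p = 0.00675). Atad2, a bromodomain ATPase and the replication gene with the most coding reads, had 589 and 818 against 442 and 391. It did not pass (log2 -0.74, adjusted p = 0.0709), although both knockdown libraries were lower. Cdca7, which works with the remodeller HELLS, had 29.4 and 36.3 in the controls and 47.8 and 39.9 in the knockdown libraries. It did not overlap in the other direction and did not pass (log2 0.41, limma adjusted p = 0.385).

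Polymerases and primase gave 1 fall among 6 genes, Pola1, beside falls in 18.7% of all genes tested. Pola1 (chromosome X, 93304766 to 93632387), the catalytic subunit of polymerase alpha, had 297 and 410 coding reads in the controls and 144 and 156 in the knockdown libraries. Both knockdown libraries were low and alike, and Pola1 changed by -1.21 ± 0.29 (SE) on the log2 scale (limma adjusted p = 0.00619). Pold1, the catalytic subunit of polymerase delta, had 125 and 148 against 91.5 and 75.02, without overlap (log2 -0.71, adjusted p = 0.0823). Pole, the catalytic subunit of polymerase epsilon, overlapped at 181 and 263 against 174 and 195 (log2 -0.24). The primase subunits Prim1 (log2 0.47) and Prim2 (log2 -0.32) and the delta subunit Pold3 (log2 -0.25) overlapped too, and Pold3 ran from 12.8 to 36.6 within the knockdown pair.

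In the clamp loader the large subunit fell, and none of the other 5 genes tested passed. Rfc1 (chromosome 5, 65261852 to 65338617), the large subunit, had 193 and 231 coding reads in the controls and 105 and 63.8 in the knockdown libraries. Its groups did not overlap, and it fell by 1.36 on the log2 scale (SE 0.31, limma adjusted p = 0.00491). The small subunits Rfc2, Rfc3, Rfc4 and Rfc5 had log2 changes of 0.32, 0.48, 0.30 and 0.06, and none passed (adjusted p = 0.271 to 0.904). Of these, Rfc3 had 69.5 and 47.5 in the controls and 84.4 and 76.6 in the knockdown libraries, so that it did not overlap in the other direction. Dscc1, of an RFC-like loader that acts in sister chromatid cohesion, had a log2 change of 0.01. No difference between subunits was tested.

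The clamp and the enzymes that finish Okazaki fragments gave 1 fall among 3 genes. Lig1, the ligase that seals the fragments, had 303 and 305 coding reads in the controls and 158 and 124 in the knockdown libraries. Both knockdown libraries were low, at -1.11 ± 0.28 (SE) for the log2 change (limma adjusted p = 0.00882). Pcna, the sliding clamp, had 272 and 254 against 327 and 246, which overlapped (log2 0.11 ± 0.29, adjusted p = 0.807). Fen1, the flap endonuclease, had 91.7 and 57.0 against 58.0 and 38.3, with the knockdown replicate 1 just above control replicate 2 (log2 -0.61, adjusted p = 0.194).

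The only rise was the smallest subunit of the single-strand binding protein RPA. Rpa3 (chromosome 6, 8255936 to 8259141) had 18.6 and 27.7 coding reads in the controls and 55.9 and 46.3 in the knockdown libraries. Both knockdown libraries were above both controls, at 1.13 ± 0.35 (SE) for the log2 change (limma adjusted p = 0.0258). Rpa2, the middle subunit, had 18.6 and 23.3 against 41.7 and 23.9, without overlap (log2 0.58, limma adjusted p = 0.287). Rpa1, the large subunit, had 260 and 208 against 221 and 148 (log2 -0.36, adjusted p = 0.389), with overlap. No difference between the subunits was tested.

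Licensing and firing factors gave 0 calls among 7 genes by limma, and 0 of 7 had an unadjusted p under 0.05. edgeR and DESeq2 on whole reads also called 0 of them. Cdc6, the helicase loader, had 94.6 and 86.4 coding reads in the controls and 62.0 and 62.2 in the knockdown libraries, which did not overlap (log2 -0.53, adjusted p = 0.186). The other 6 had log2 changes of 0.03 to 0.58: Dtl, the receptor of the ligase that degrades CDT1, had 97.4 and 91.6 against 95.6 and 97.4. Mcm10, which acts at the start of unwinding, had 56.6 and 40.6 in the controls and 81.4 and 63.8 in the knockdown libraries. Orc1, Orc6, Cdc45 and the CDT1 inhibitor Gmnn (geminin) lay between them. In Mcm10, Orc1 and Gmnn both knockdown libraries were above both controls. Orc6 had 34.4 and 25.9 in the controls and 70.2 and 22.3 in the knockdown libraries, and Gmnn had 20.1 and 17.3 against 30.5 and 23.9. The GINS genes Gins1, Gins2 and Gins4, subunits of the active helicase, had log2 changes of -0.16, 0.10 and 0.37 and did not pass. In Gins4 both knockdown libraries were above both controls. Gins2 had 36.5 and 30.3 against 46.8 and 27.1.

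Genes of deoxynucleotide supply gave 0 calls among 4, and their values depended on the library. Rrm1, the large subunit of ribonucleotide reductase, had 478 and 487 coding reads in the controls and 317 and 254 in the knockdown libraries. These did not overlap, but the adjusted p stayed above the threshold (log2 -0.76, limma adjusted p = 0.0531). Rrm2, the small subunit that is made in S phase, had 105 and 65.7 in the controls and 207 and 70.2 in the knockdown libraries (log2 0.53, adjusted p = 0.353). Thymidylate synthase Tyms (log2 0.13) and thymidine kinase Tk1 (log2 0.10) overlapped as well, and Tk1 had 62.0 and 16.0 in the knockdown pair against 28.7 and 30.3 in the controls. The median log2 change of the 4 genes was 0.12, and it was -0.57 without knockdown replicate 1 and 0.80 without knockdown replicate 2.

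Fork protection and repair genes gave 0 calls among 5. Clspn, the adaptor of the replication checkpoint, had 104 and 129 coding reads in the controls and 98.7 and 110 in the knockdown libraries (log2 -0.15, adjusted p = 0.737). Brip1, a helicase of crosslink repair, Wdr76 and Rad51ap1 overlapped between groups too. Tipin, of the fork protection complex, had 28.7 and 43.2 against 46.8 and 44.7 (log2 0.37, adjusted p = 0.442), and did not overlap.

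**Figure D2:**
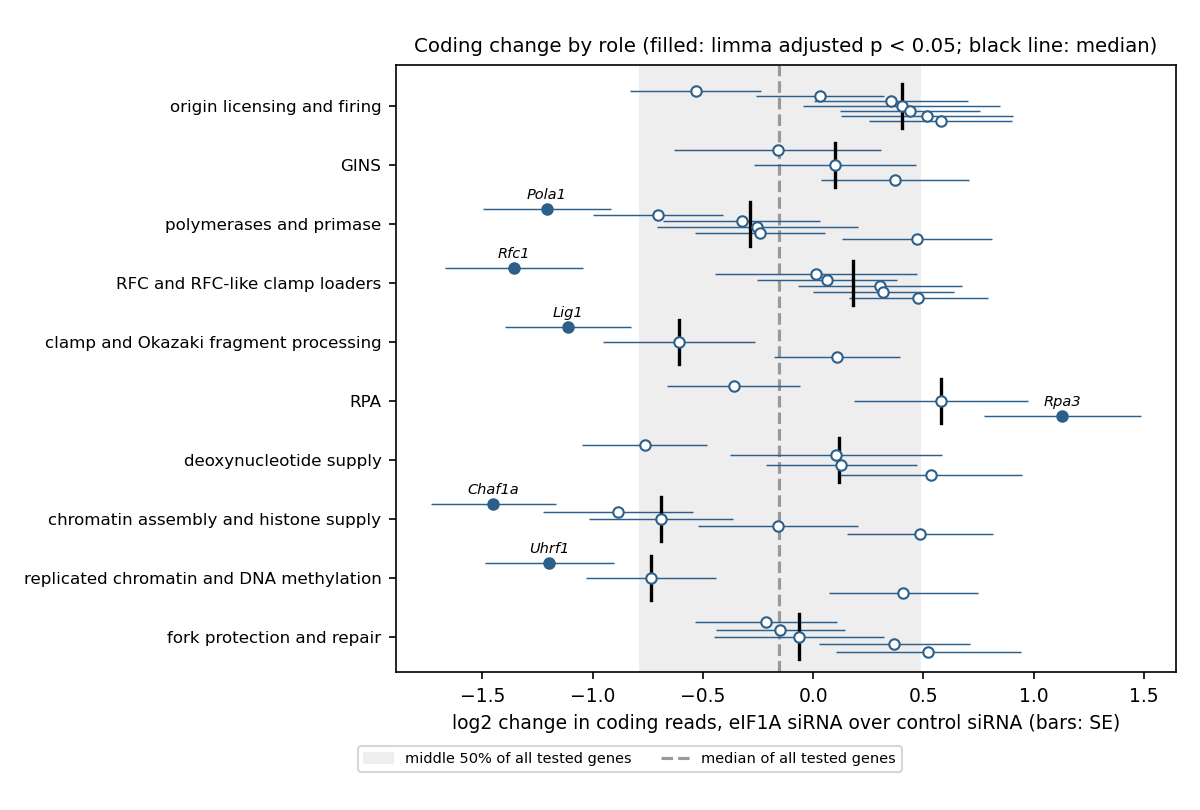
Coding reads of each replication gene by role, as the log2 change from control to eIF1A siRNA, with bars for the SE of the limma fit, filled dots for adjusted p under 0.05 and a black line at each role's median. The grey band spans the interquartile range of all 4619 tested genes and the dashed line is their median of -0.16; 5 filled dots lie left of the band and Rpa3 at 1.13 lies right of it.

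The genes that fell were those with many coding footprints. All 5 were in the top 25% of the 4619 genes by mean coding reads, which held 17 replication genes (29.4% called, all lower). In that class 342 of 1155 genes were lower and 132 higher (41.0% called). Across the 45 genes the log2 coding change went with the mean log2 coding level at a Spearman rho of -0.50, and with the log2 genomic length of the gene at -0.53. Across all tested genes these values were -0.08 (n = 4619) and -0.32 (n = 4420). These points share the same 4 libraries, counting error is larger for genes with few reads, and genes are not independent replicates.

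Leaders of the replication genes held a smaller part of all leader footprints in the knockdown libraries. Of all leader reads in the table, 1.39% (95% exact Clopper-Pearson interval 1.30 to 1.48) and 1.41% (1.33 to 1.50) were on the 45 genes in the controls, and 0.970% (0.908 to 1.04) and 0.951% (0.889 to 1.02) in the knockdown libraries. Both knockdown libraries were below both controls by more than the counting error, which is all that these intervals cover. For coding reads the shares were 1.37% (1.34 to 1.40) and 1.35% (1.32 to 1.38) in the controls and 1.27% (1.23 to 1.30) and 1.17% (1.12 to 1.22) in the knockdown libraries. With 2 libraries a group, an exact two-sided permutation test cannot give a p below 0.333, and no test of these shares was run.

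As a sum, that difference lay in the 5 leaders with the most reads, Pcna, Rrm1, Fen1, Tk1 and Uhrf1. Without these 5 genes, the other 40 held 0.475% and 0.507% of leader reads in the controls and 0.484% and 0.503% in the knockdown libraries. Among these 40, with TMM scaling, given below, Lig1, Gins1 and Wdr76 were lower and Orc6 higher. Rrm2 and Slbp were called higher too, but they passed the filter only through the knockdown libraries, so their rises support nothing. DESeq2 called none of these genes. Without Pcna alone the shares were 1.03% and 1.06% against 0.776% and 0.752%.

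**Figure D3:**
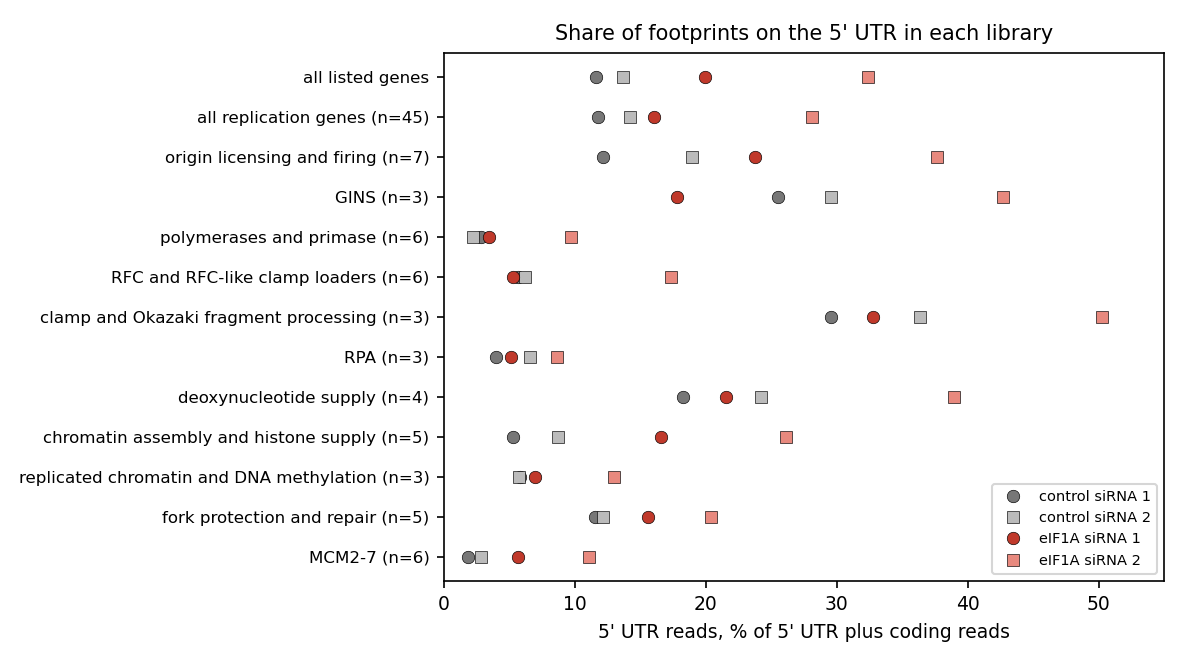
Share of 5' UTR reads among 5' UTR plus coding reads in each library, for all listed genes, for the 45 replication genes, for each role and for MCM2-7 (n, number of genes summed; circles, replicate 1; squares, replicate 2). All listed genes go from 11.6% and 13.7% in the controls to 19.95% and 32.4%, and the replication genes from 11.8% and 14.2% to 16.0% and 28.1%.

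Within the 45 genes, leader reads were 11.8% (95% exact interval 11.1 to 12.5) and 14.2% (13.4 to 15.1) of leader plus coding reads in the controls, and 16.0% (15.1 to 17.02) and 28.1% (26.5 to 29.7) in the knockdown libraries. The controls were close to the table as a whole, and both knockdown libraries lay below it. By role, chromatin assembly and histone supply went from 7.02% ± 2.43 to 21.4% ± 6.78 (SD, n = 2) and licensing and firing from 15.6% ± 4.81 to 30.7% ± 9.79. These did not overlap, nor did polymerases and primase, replicated chromatin, and fork protection and repair. Such a share rises with fewer coding reads as well as with more leader reads. Polymerases and primase stood at 2.85% and 2.21% against 3.45% and 9.73%, with Pola1, Pold1 and Pole at 1 leader read in every library. In replicated chromatin the Uhrf1 leader lay below both controls. GINS (27.5% ± 2.91 and 30.2% ± 17.6), RFC, RPA, the clamp group and deoxynucleotide supply overlapped between the groups of libraries.

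By gene, leaders were tested where the mean was at least 10 normalized reads, which 21 of the 45 genes reached. Of these, 6 rose (28.6%), 0 fell and 15 did not pass by limma, with 7 at an unadjusted p under 0.05, while 46.8% of all 2101 tested leaders were called, 44.0% higher and 2.81% lower. Only 16 of the 21 reached that mean in the controls, and 2 of these rose (12.5%), against 433 of 1397 such leaders in all (31.0%). The other 4 rises (Rrm2, Slbp, Gmnn and Clspn) were in leaders that passed the filter only through the knockdown libraries. They were high there and so had to differ. Mcm10, which was not called, passed it in the same way. The values of these leaders are a description, given without p-values. In 9 of the 21 leaders the knockdown pair was above the control pair without overlap, and in 1 (Uhrf1) below it, against 67.4% and 7.19% of all tested leaders. The median log2 change of the 21 leaders was 0.45 and that of all tested leaders 1.09.

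Scaling moved all leaders together, and with them the calls. With TMM factors of the leader reads themselves, the median of all leaders moved from 1.09 to 0.03 and that of the 21 from 0.45 to -0.62. On that scale 3 of the 21 rose (Rrm2, Slbp and Orc6) and 8 fell (Pcna, Fen1, Lig1, Rrm1, Tk1, Uhrf1, Gins1 and Wdr76). Of the 3 rises, only Orc6 had controls that reached the filter, so those of Rrm2 and Slbp support nothing. The calls over all leaders were 441 higher and 444 lower in place of 924 and 59. DESeq2 gave 0 higher and 4 lower (Pcna, Fen1, Rrm1 and Uhrf1), with 9 of the 21 at an unadjusted p under 0.05. On the authors' scale, the median log2 change of the 21 leaders was 0.39 without control replicate 1 and 0.50 without control replicate 2. It was 1.05 without knockdown replicate 1 and 0.22 without knockdown replicate 2. The medians of all leaders were, in the same order, 0.95, 1.21, 1.42 and 0.76. The values below are on the authors' scale, on which the median of all leaders was 1.09.

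**Figure D4:**
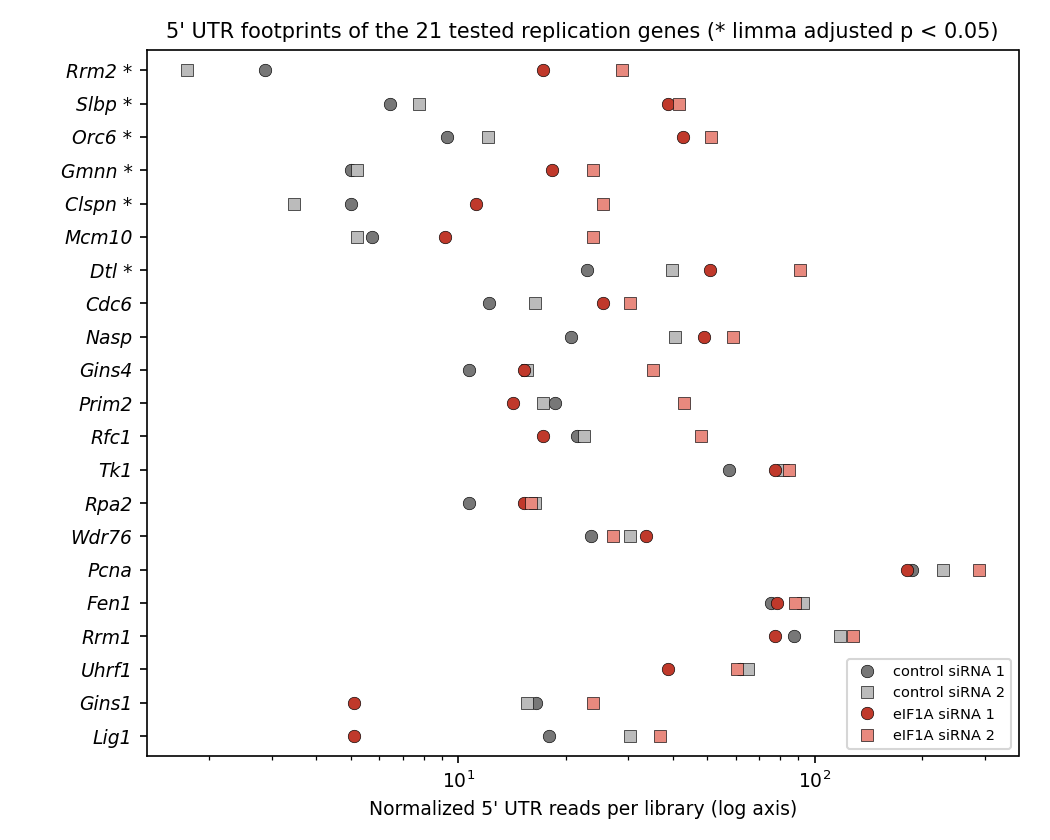
Normalized 5' UTR reads of the 21 tested replication genes in each library on a log axis, ordered by log2 change (grey, control siRNA; red, eIF1A siRNA; circles, replicate 1; squares, replicate 2). From Rrm2 at the top down to Nasp both red symbols lie right of both grey ones, while in Pcna, Fen1, Tk1 and Rrm1 the colours mix.

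Rrm2, described without a test, had 2.87 and 1.73 normalized leader reads in the controls (4 and 2 reads) and 17.3 and 28.7 in the knockdown libraries (17 and 18 reads). Both knockdown libraries were above the controls, by 9.25 times for the summed reads once divided by the summed size of the libraries, with a 95% counting interval of 3.85 to 26.9. If 1 read was added to every value, the ratio is 13.1 (4.65 to 50.8). Both intervals cover counting error only, not the spread between libraries. Neither is a test, as Rrm2 passed the filter through its high knockdown values. Its log2 change was 2.84 on the authors' scale and 1.89 with TMM factors, where the medians of all leaders were 1.09 and 0.03.

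Slbp had 6.45 and 7.78 leader reads in the controls and 38.6 and 41.5 in the knockdown libraries, which stood clearly apart. Its log2 change was 2.34, and 1.30 with TMM factors, while its coding reads overlapped at 131 and 91.6 against 146 and 65.4. Orc6, a subunit of the origin recognition complex, had 9.31 and 12.1 against 42.7 and 51.1, again with a wide gap. Its controls reached the filter, and it rose (log2 2.04 ± 0.53, SE, limma adjusted p = 0.000696). That call was lost in 2 of 16 alternatives, DESeq2 and the fit without control replicate 1.

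Gmnn and Clspn were low in the controls as well. Gmnn had 5.02 and 5.19 leader reads in the controls and 18.3 and 23.9 in the knockdown libraries (log2 1.85). Clspn had 5.02 and 3.46 against 11.2 and 25.5 (log2 1.80). Dtl, whose controls reached the filter, had 22.9 and 39.8 against 50.9 and 91.0 (log2 1.14 ± 0.49, limma adjusted p = 0.0428). Groups did not overlap in these 3 genes, but none of the 3 passed with TMM factors of the leader reads, where the log2 changes were 0.84, 0.80 and 0.05, and Dtl was at -0.00020 with DESeq2. Mcm10 and Cdc6, and the chaperone gene Nasp, did not overlap either. Mcm10, whose controls did not reach the filter, stood at 5.73 and 5.19 against 9.15 and 23.9. Cdc6 stood at 12.2 and 16.4 against 25.4 and 30.3 and did not pass (limma adjusted p = 0.140).

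The most abundant leaders did not pass on the authors' scale. Pcna had 187 and 229 leader reads in the controls and 181 and 289 in the knockdown libraries, and the knockdown pair enclosed the controls (log2 0.14 ± 0.42, adjusted p = 0.799). Rrm1 had 87.4 and 118 against 77.3 and 128, with the same layout (log2 -0.03). Fen1 had 75.2 and 92.5 against 78.3 and 87.8 (log2 -0.01), and Tk1 had 57.3 and 81.2 against 77.3 and 84.6 (log2 0.24). Tk1 was the 1 replication gene with more leader than coding reads in all 4 libraries, as 251 genes of the table were (5.15%). Its ratio of leader to coding reads was 2.00 and 2.69 in the controls and 1.25 and 5.30 in the knockdown libraries.

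Leaders of the 5 genes that lost coding reads did not pass, or were too low to be tested. Uhrf1 had 61.6 and 64.8 leader reads in the controls and 38.6 and 60.7 in the knockdown libraries, which put both below the controls (log2 -0.38, adjusted p = 0.529). Rfc1 had 21.5 and 22.5 against 17.3 and 47.9 (log2 0.38), and Lig1 had 17.9 and 30.3 against 5.09 and 36.7 (log2 -0.68), so the knockdown libraries disagreed on both. Chaf1a, whose leader was too low to be tested, had 2 and 3 leader reads in the controls and 12 and 10 in the knockdown libraries, 6.98 times more for the summed reads once divided by the summed size of the libraries (95% counting interval 2.58 to 23.6). If 1 read was added to every value, the ratio is 10.6 (3.14 to 55.6). These intervals too cover counting error only, and they are no test of Chaf1a. The leaders of Pola1, Pold1, Pole, Gins2, Dscc1 and Rpa3 stood at 1 read in every library, the lowest value in the table. A leader at that floor has a log2 change of 0.36 from the size factors alone.

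**Figure D5:**
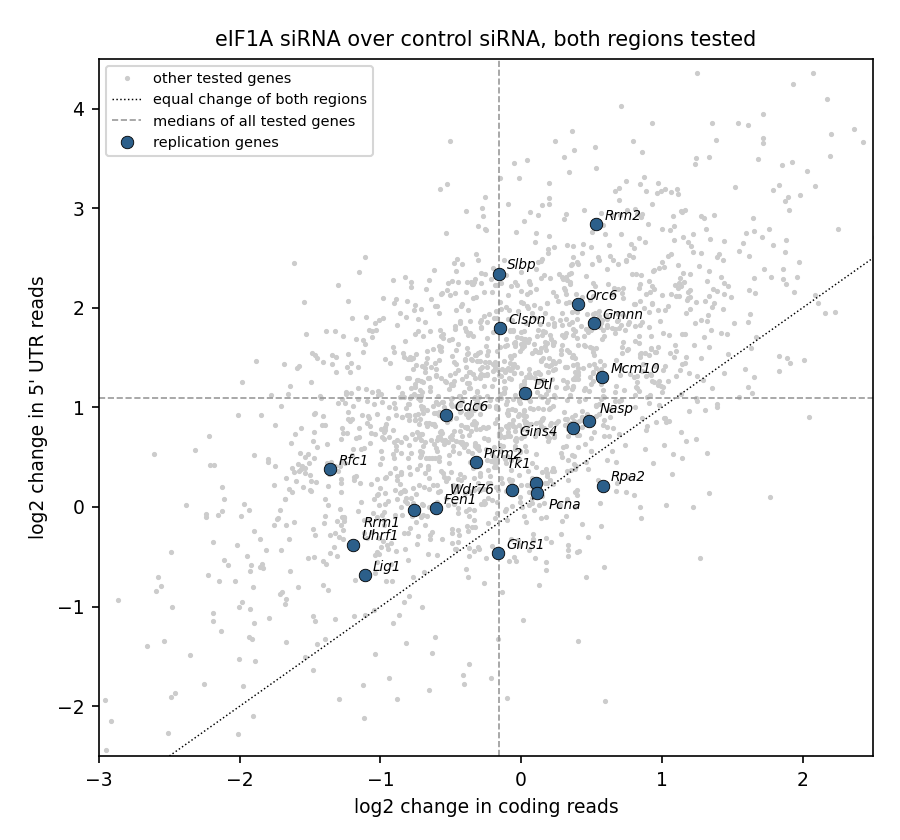
Log2 change in 5' UTR reads against that in coding reads, from control to eIF1A siRNA, for the 21 replication genes with both regions tested (blue) and 1907 genes in all (grey; 29 lie outside the axes), with dashed lines at the medians of all tested genes (-0.16 for coding, 1.09 for leaders). The dotted line marks equal change; Gins1 and Rpa2 lie below it, Slbp, Rrm2 and Clspn lie farthest above it.

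The ratio of leader to coding reads rose in 3 of 21 replication genes (14.3%), against 19.5% of 1907 genes, 19.4% higher and 0.0524% lower. All 3, Slbp, Rrm2 and Clspn, passed the filter only through the knockdown libraries, so this count supports nothing. Of the 16 genes whose controls reached it, 0 were called by limma (2 at an unadjusted p under 0.05), against 162 of 1229 genes (13.2%), with medians of 0.51 and 1.08. Slbp had ratios of 0.0492 and 0.0849 leader reads per coding read in the controls and 0.264 and 0.634 in the knockdown libraries (log2 2.50). For Rrm2 they were 0.0272 and 0.0263 against 0.0833 and 0.409 (log2 2.31), and for Clspn 0.0483 and 0.0268 against 0.113 and 0.232 (log2 1.95). In all of them the knockdown libraries were above both controls, and knockdown replicate 2 was the higher one. Over the 21 genes the ratio lay above both controls in 10 and below them in 0, against 63.9% and 1.52% of all. The median log2 change in ratio was 0.74 for the 21 genes and 1.23 for all, and with TMM factors of each region it was -0.47 and 0.00, with 0 replication genes called by limma and 5 at an unadjusted p under 0.05. The median log2 change in ratio of the 21 genes was 0.55 without control replicate 1 and 0.97 without control replicate 2. It was 1.52 without knockdown replicate 1 and 0.22 without knockdown replicate 2. For all genes these medians were, in the same order, 1.06, 1.44, 1.76 and 0.76. Across the 21 genes leader and coding changes went together at a Spearman rho of 0.55, as across all 1907 (0.56), and they share the libraries and their size factors.

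Of 64 other replication genes 37 were in the table, and 2 rose and 3 fell in coding reads (13.5% called), with a median log2 change of -0.12. Wdhd1, a polymerase alpha partner at the fork, fell by 1.20 on the log2 scale (limma adjusted p = 0.00677), Chtf18, of the cohesion clamp loader, by 1.15 (adjusted p = 0.0117) and the mismatch repair protein Msh6 by 1.13 (adjusted p = 0.00893). The small polymerase epsilon subunits Pole4 and Pole3 rose, by 1.62 and 1.25 (adjusted p = 0.00535 and 0.0405). Leaders of this list rose in 9 of 14 genes tested (median log2 1.55), beside 44.0% of all leaders (median 1.09), and in 6 of the 11 whose controls reached the filter, beside 31.0%. MCM2-7 all lay below both controls in coding reads, with a median log2 change of -0.56, and 2 of the 6, Mcm4 and Mcm6, passed (log2 -1.13 and -1.61). No difference between the lists was tested.

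Of the 45 genes, 21 overlap another RefSeq gene in the genome, among them Chaf1a (Ubxn6), Lig1 (Zswim9), Fen1 (Tmem258), Tk1 (Afmid) and Dtl (Ints7). The sources used here do not give whether counting used strand, so reads of such pairs may be shared.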

How the data were processed

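Ribosome footprints of 4 libraries were taken from 1 table. Its columns give, per the file headers, a deposited signal for the 5' UTR and the coding sequence of each gene, here found to be reads over a size factor. The build mm10 and the tools DESeq2, HTSeq, TopHat2, Bowtie and cutadapt are named in the submitters' processing notes, without versions or roles. Dividing by what 1 read is worth in a library gave whole reads for 100% of values, to within 0.001 reads. The lowest value was 1 read, so 0 and 1 may not be told apart. The table totals are those of listed genes, not full depth.

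Values were tested as log2(value + 1) with limma 3.58.1 in R 4.3.3 (empirical Bayes with a trend, Benjamini-Hochberg over all genes tested, threshold 0.05). A mean of at least 10 was required, and for the ratio in both regions. Fold changes on this scale understate those of low genes. Alternatives were pseudocounts, filters, scalings, a replicate block, each library left out, 1 read less per value, and edgeR 4.0.16 and DESeq2 1.42.0 on whole reads. The procedure was tested on simulated data. Gene positions and promoter windows came from RefSeq tables (GRCm38.p6), in which all 51 symbols matched. Values in every library were given for genes called in any measure, the gene with most coding reads in each role, and Pcna, Rrm2, Cdc6 and Cdt1, where analysed, with others chosen after their values were seen; other pathway genes were named where called in coding reads. Genes and lists were chosen with earlier results of these data known.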

Additional observations from a re-analysis of the deposited data

How the results depend on the processing

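The 6 coding calls of replication genes held in at least 13 of 15 alternatives each and were lost only where a control library was left out. Of 217 values of called genes under the alternatives, 165 kept direction and call, 51 lost the call, and Dtl's leader change turned to -0.00020 with DESeq2. These values include the leaders of Rrm2, Slbp, Gmnn and Clspn and the ratios of Slbp, Rrm2 and Clspn. Those passed the filter only through the knockdown libraries, so the calls they kept support nothing. With 1 library left out, the lone library is assumed to vary like the other group. Called genes over the whole table then ranged from 11 to 1729 for coding reads, 189 to 1396 for leaders and 0 to 1175 for the ratio, and replication genes from 0 to 8 higher and 0 to 8 lower in coding reads, 1 to 11 higher and 0 to 2 lower in leaders, and 0 to 11 higher in the ratio.

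The median log2 coding change of a role ranged with 1 library left out from 0.17 to 0.68 for licensing and firing, -0.052 to 0.37 for GINS, -0.83 to -0.079 for polymerases, -0.14 to 0.54 for RFC, -0.95 to -0.27 for the clamp group, 0.19 to 0.97 for RPA, -0.57 to 0.80 for deoxynucleotides, -0.74 to -0.47 for chromatin assembly, -0.97 to -0.50 for replicated chromatin and -0.070 to 0.15 for fork protection. That last median was 0.068 with DESeq2, 0.10 with TMM factors, 0.058 with edgeR and 0.10 with quantile normalization, which put replicated chromatin at -0.35. edgeR called 2 replication genes higher in coding reads, Rpa3 and Rrm2.

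For leaders of replication genes, TMM factors and edgeR called 3 higher and 8 lower, quantile normalization 3 and 7, and DESeq2 0 and 4 (353 leaders in all). The 3 higher were Rrm2, Slbp and Orc6 each time, and of these only Orc6 had controls that reached the filter. A mean of at least 20 gave 597 of 1159 leaders and 3 of 14 replication genes. For ratios it gave 232 of 933 and 1 of 14. No filter gave 11 of 45 leaders of replication genes (24.4%), against 1309 of 4878 in all (26.8%). For ratios it gave 6 of 45, against 629 of 4878 in all. For the ratio, TMM factors called 1 gene and 0 replication genes, and a pseudocount of 5 called 375 of 1907 genes, 1 of them a replication gene. Coding calls split 488 higher and 864 lower here, 789 and 764 with TMM factors, 900 and 812 with edgeR, 490 and 498 with DESeq2 and 695 and 694 after quantile normalization. Leader calls split 924 and 59 here, 441 and 444 with TMM factors, 427 and 435 with edgeR, 139 and 214 with DESeq2 and 452 and 375 after quantile normalization.

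With the replicate number as a block, 10 of 45 replication genes were lower in coding reads, against 1175 of 4619 genes in all. These 10 were Atad2, Casp8ap2, Chaf1b, Pold1 and Rrm1 besides the 5 named. The ratio gave 851 of 1907 genes, and 6 of 21 replication genes. Deviations of same-numbered libraries correlated at 0.26 for coding reads and -0.06 for leaders, so the numbers were not shown to pair the libraries. The median replication gene had 94, 66, 70 and 35 coding reads in the 4 libraries, which limits what the last can show. TMM factors computed from coding reads for both regions were chosen after seeing the data. They called 5 of 21 leaders of replication genes higher, against 684 of 2101 in all. Of these 5, only Orc6 had controls that reached the filter.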
